A study of Homo sapiens with 6 samples.

Results

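PSCA, prostate stem cell antigen, and 9 related genes of the Ly6/uPAR family were followed in SW480, a human colorectal adenocarcinoma cell line, with and without introduced FOXC2. The genes named were PSCA, LY6D, LY6E, LY6H, LY6K, LYPD1, LYPD3, LYPD6, PLAUR and CD59. Of these 10 genes, 8 had at least 1 feature with their symbol in the deposited table, out of 12562 named genes. LY6H and LYPD6 had none and were not analysed here. Each gene was represented by its feature with the highest mean over all arrays; PLAUR had 3 features and the other 7 genes 1 each. The set was chosen by the intensities of PSCA, whose fall in FOXC2 cells was already known from these arrays, together with its family, so its own change is given as a description with no test.

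All cells were SW480, grown in 10% fetal bovine serum. One group of 3 cultures carried a FOXC2 construct delivered by retrovirus, and the other group of 3 carried the empty pBabe vector. Puromycin, 0.5 μg/mL over 3 to 5 days, was used to select both groups, which were taken near 90% confluence. FOXC2 is a forkhead transcription factor linked to the epithelial-mesenchymal transition. The labels describe 3 separate cultures per group but do not say how many transductions they came from, so p-values measure the spread between cultures. NimbleGen arrays were read in 1 colour, Cy3, and the values are normalized intensities. Each log2 fold change is the FOXC2 mean less the pBabe mean, so that 1 stands for a 2-fold difference.

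Ly6/uPAR proteins share a fold in which loops project like fingers from a core held together by disulphide bonds. Most are tethered to the outer face of the membrane by a glycosylphosphatidylinositol (GPI) anchor, and many act by binding a partner protein rather than by signalling themselves. PSCA is known from prostate, bladder and stomach epithelium. LY6D and LYPD3 are surface antigens of squamous epithelium, and LY6K is a cancer-testis antigen. LY6E is induced by interferon and affects the entry of viruses into cells. LYPD1 modulates nicotinic acetylcholine receptors. PLAUR is the receptor of urokinase, which concentrates plasminogen activation at the cell surface, and CD59 blocks the membrane attack complex of complement.

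The start-site windows of the members that carry opposite results are shown first, as annotated by RefSeq on GRCh38.p14, each from 250 bases before to 50 bases after the start, 5′ to 3′ on the gene's strand. LYPD3 fell in FOXC2 cells, PLAUR is on the same chromosome and did not pass the test, and LYPD1, with 2 annotated starts, rose. Capitals mark matches on either strand to TGANTCA, the AP-1 motif, or to GGGCGG, the Sp1 box, as found by a letter search.
LYPD3 (chr19:43465559-43465858, minus strand): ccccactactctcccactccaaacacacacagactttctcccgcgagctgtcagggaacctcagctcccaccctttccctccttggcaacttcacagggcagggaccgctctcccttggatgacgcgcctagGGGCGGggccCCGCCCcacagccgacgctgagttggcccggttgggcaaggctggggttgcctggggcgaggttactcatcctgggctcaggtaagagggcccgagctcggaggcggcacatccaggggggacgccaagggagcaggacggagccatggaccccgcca
PLAUR (chr19:43670120-43670419, minus strand): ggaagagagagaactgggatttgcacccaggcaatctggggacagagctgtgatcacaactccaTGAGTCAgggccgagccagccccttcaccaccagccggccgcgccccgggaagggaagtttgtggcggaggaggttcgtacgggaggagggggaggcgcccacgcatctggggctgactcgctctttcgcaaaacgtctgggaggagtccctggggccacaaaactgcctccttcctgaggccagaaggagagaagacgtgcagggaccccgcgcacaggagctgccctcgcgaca
LYPD1 upstream start (chr2:132671477-132671776, minus strand): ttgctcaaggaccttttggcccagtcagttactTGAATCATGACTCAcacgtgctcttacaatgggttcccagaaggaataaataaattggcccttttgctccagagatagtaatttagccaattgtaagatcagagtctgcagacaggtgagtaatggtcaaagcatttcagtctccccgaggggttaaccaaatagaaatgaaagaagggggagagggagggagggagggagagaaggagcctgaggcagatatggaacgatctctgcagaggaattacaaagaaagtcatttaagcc
LYPD1 downstream start (chr2:132670156-132670455, minus strand): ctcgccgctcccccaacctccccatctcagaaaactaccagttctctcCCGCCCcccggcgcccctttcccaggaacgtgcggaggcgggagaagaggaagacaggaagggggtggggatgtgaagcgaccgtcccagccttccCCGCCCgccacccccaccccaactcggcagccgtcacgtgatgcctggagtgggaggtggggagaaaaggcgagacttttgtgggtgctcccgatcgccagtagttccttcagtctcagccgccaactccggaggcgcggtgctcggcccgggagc
The LYPD3 window held 2 Sp1 boxes, in opposite orientations, and no AP-1 match. The PLAUR window held 1 AP-1 match and no Sp1 box. The upstream LYPD1 window held 2 AP-1 matches that abut without overlapping, and the downstream one 2 Sp1 boxes. Of 35116 windows of the same length, 7.71% held an AP-1 match and 45.0% an Sp1 box. The forkhead core TAAACA and the TATA box TATAAA, searched on both strands, were in none of these 4 windows, against 12.3% and 11.5% of all windows. No searched motif overlapped another in the 4 windows. The upstream LYPD1 window was 45.3% G and C with 3 CG steps, and the downstream one 67.0% with 24, where the median window had 58.7% and 14. LYPD3 and PLAUR were closer to each other, at 67.0% with 17 CG steps and 64.0% with 18. These matches describe letters in a window, and which start was used in these cells was not measured.

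Of the named genes, PSCA, LY6D, LY6E, LY6H and LY6K lie on chromosome 8, LYPD3 and PLAUR on chromosome 19, LYPD1 and LYPD6 on chromosome 2 and CD59 on chromosome 11. The arrays were alike in overall level, with median intensities between 895 and 913. FOXC2 itself read 2319, 2323 and 2818 with the vector and 8777, 8262 and 8344 with the construct, so every array went with its label. Of 15 colorectal epithelium markers, 9 were measured. The intestinal factor CDX2 and the brush border protein VIL1 were at mean intensities of 1435 and 572 in pBabe cells and 3271 and 4925 in FOXC2 cells, while the intestinal cadherin CDH17 was dim, at 325 in pBabe replicate 1 and between 54.6 and 118 on the other 5 arrays. No detection calls were used here, so no gene can be called absent, and the lowest intensity in the table was 50.002.

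PSCA was the member with the widest difference between the groups. Its intensities were 3280, 3543 and 3509 with the vector and 53.3, 50.8 and 155 with FOXC2. The groups were far apart, and FOXC2 replicates 1 and 2 lay at the bottom of the measured range while FOXC2 replicate 3 stood above them. The mean log2 intensity was 11.75 ± 0.0606 (SD, n = 3) in pBabe cells and 6.23 ± 0.907 (SD, n = 3) in FOXC2 cells, a difference of -5.52 or a 46.0-fold lower level. Because the FOXC2 values reach the lowest in the table, the size of this difference is uncertain. It was -6.05 without FOXC2 replicate 3. In bulk RNA, fewer cells of a type and less RNA per cell cannot be told apart.

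LY6K, next to PSCA on chromosome 8, fell as well. Its intensities were 2640, 2531 and 2360 with the vector and 207, 331 and 437 with FOXC2. All FOXC2 values lay below all pBabe values, and FOXC2 replicate 3 was again the highest of its group. The log2 fold change was -3.01 ± 0.256 (SE), an 8.08-fold lower level (95% confidence interval 5.30 to 12.3), at a limma adjusted p of 4.27e-04 (Benjamini-Hochberg over all 33497 features). Of 12562 genes, 27 had a fall at least this large, or 0.215%. The log2 fold change was -3.26 without FOXC2 replicate 3 and -2.72 without FOXC2 replicate 1, and LY6K passed in both cases.

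LYPD3, which binds laminin and the secreted AGR proteins, fell to a smaller extent. Its intensities were 4117, 3906 and 3246 with the vector and 1311, 1334 and 1251 with FOXC2. The FOXC2 cultures were close together, with an SD of 0.0477 on the log2 scale (n = 3) against 0.180 (n = 3) in pBabe, and the groups did not overlap. The log2 fold change was -1.53 ± 0.113 (SE), a 2.88-fold lower level (95% confidence interval 2.39 to 3.47; limma adjusted p 2.45e-04). A fall of that size or larger was seen for 1.68% of genes.

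LYPD1 was the member that rose. Its intensities were 490.1, 500.2 and 477 with the vector and 1103, 1307 and 1120 with FOXC2. Every FOXC2 culture was above every pBabe culture, and the pBabe values lay within a few percent of each other. The log2 fold change was 1.26 ± 0.0984 (SE), a 2.40-fold higher level (95% confidence interval 2.04 to 2.82; limma adjusted p 3.08e-04). A rise of that size or larger was seen for 1.98% of genes. GPR39, a zinc-sensing receptor whose annotated span overlaps that of LYPD1, was also higher, with mean intensities of 1125 and 523 and a log2 fold change of 1.10 ± 0.128 (SE; limma adjusted p 0.00158). GPR39 was named after its values were seen. The probes cannot be placed here, and whether the labelling kept strands apart is not given in the sources used here, so signal from the 2 genes may not be separable.

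**Figure D1:**
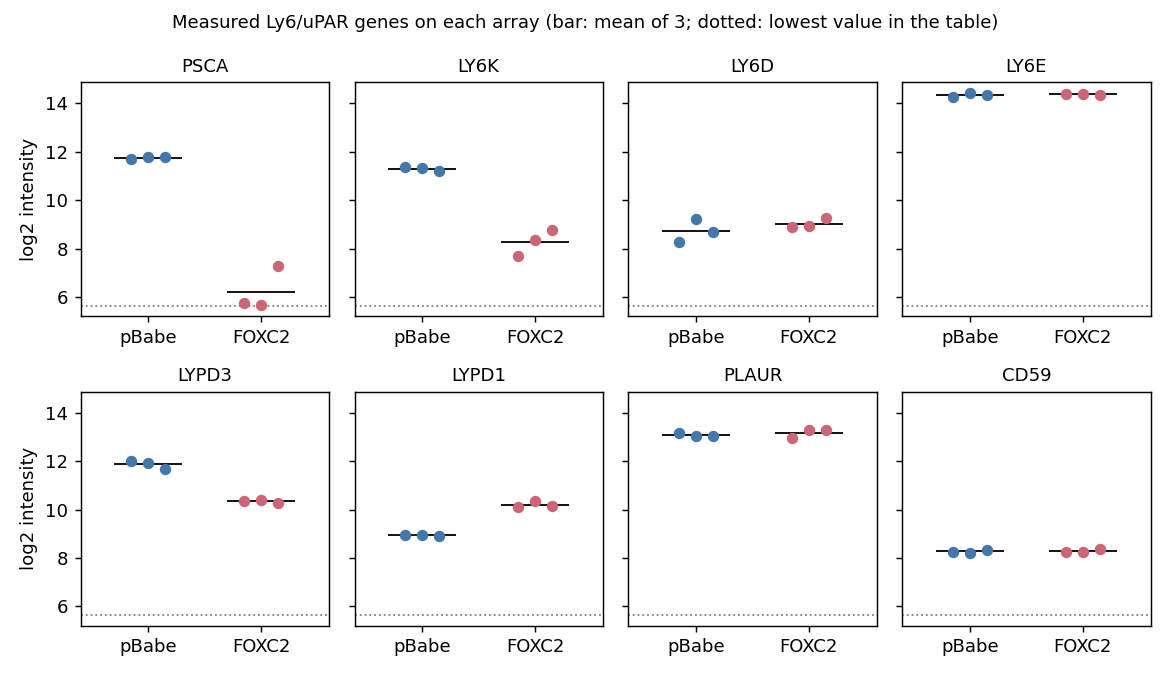
Log2 intensity of the 8 measured members on each of 6 arrays, 3 pBabe cultures in blue and 3 FOXC2 cultures in red, with the group mean as a bar and the lowest value of the whole table as a dotted line. PSCA, LY6K and LYPD3 are lower in every FOXC2 culture, LYPD1 is higher in every FOXC2 culture, and for LY6D, LY6E, PLAUR and CD59 the groups overlap.

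The other 4 members did not pass the test, and their groups overlapped. LY6D was at 311, 589 and 410 with the vector and 474, 493 and 610 with FOXC2. The wide spread of the pBabe cultures, with an SD of 0.461 on the log2 scale (n = 3), left an interval from -0.25 to 0.87 around its log2 difference of 0.31 (limma adjusted p 0.370), which reaches up to a 1.82-fold rise.
LY6E was bright on every array, at 19402, 21981 and 20706 with the vector and 21502, 21224 and 21003 with FOXC2. Its log2 fold change was 0.04 (95% confidence interval -0.17 to 0.25; limma adjusted p 0.769), which leaves room for only small differences. BST2, another interferon-induced and GPI-anchored protein, named after its values were seen, was lower by 1.69 ± 0.118 (SE) on the log2 scale (limma adjusted p 2.06e-04).
CD59 lay at 304, 298 and 325 with the vector and 302, 299.7 and 327 with FOXC2, a log2 fold change of 0.00 (95% confidence interval -0.21 to 0.21; limma adjusted p 0.996). The values of the groups nearly coincided. They came from 1 feature, below the median intensities of the arrays (895 to 913), which limits what this flat reading can show.
PLAUR was at 9070, 8344 and 8374 with the vector and 7958, 9873 and 9849 with FOXC2, at 0.10 on the log2 scale (95% confidence interval -0.18 to 0.37; limma adjusted p 0.570). FOXC2 replicate 1 was the lowest and FOXC2 replicates 2 and 3 the highest of the 6. The other PLAUR features, which stand for other RefSeq transcripts, gave log2 fold changes of 0.13 ± 0.118 and 0.22 ± 0.150 (SE), and their groups overlapped too (limma adjusted p 0.445 and 0.310).

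Counted together, 3 of the 7 members other than PSCA passed, 1 higher and 2 lower. Among all 12562 genes 28.4% passed, 14.1% higher and 14.3% lower. Counting PSCA, 4 of 8 members had groups that did not overlap, against 48.4% of all genes. These shares are close to the background for so few genes, and the members were chosen with results known. The median log2 fold change was 0.02 over the 8 members and 0.03 over all genes. The members therefore did not move as a block: the falls of PSCA, LY6K and LYPD3 stood beside 1 rise and 4 genes that did not pass.

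The changes of some members are set side by side here, as a description with no test, since each pair was chosen with its values known. The log2 fold change of LY6K less that of LY6D was -3.32, and less that of LY6E it was -3.05. For LYPD3 less PLAUR, both on chromosome 19, it was -1.62, and for LYPD1 less CD59 it was 1.26.

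**Figure D2:**
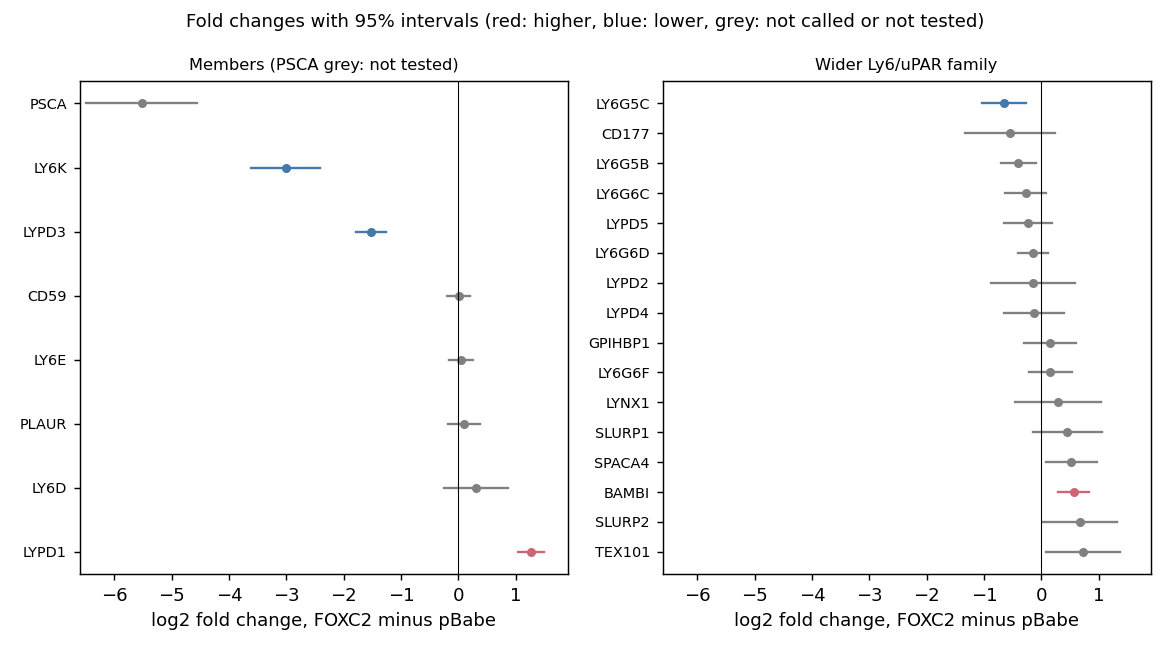
Log2 fold change (FOXC2 minus pBabe) with 95% confidence interval for the 8 members and for 16 further Ly6/uPAR genes on the same scale. PSCA and LY6K stand far to the left at -5.52 and -3.01, whereas all 16 further genes lie between -0.65 and 0.72. Most of the 16 were dim in pBabe cells, which left little room for such falls.

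No measured gene of the wider Ly6/uPAR family changed as much as PSCA or LY6K, but dim levels left most little room to fall. Of 26 further family genes listed, 16 were measured, with a median log2 fold change of 0.01. Of these, 1 rose, 1 fell and 14 did not pass, where 14.1% of all genes were higher and 14.3% lower. BAMBI, a membrane decoy of TGF-beta receptors with a related extracellular fold, rose by 0.56 ± 0.111 (SE; limma adjusted p 0.0122), with mean intensities of 6504 in pBabe and 9566 in FOXC2 cells. LY6G5C fell by 0.65 on the log2 scale (limma adjusted p 0.0260), from 305 to 196, but lost the call if FOXC2 replicate 3, pBabe replicate 1 or pBabe replicate 2 was left out (adjusted p 0.0583 to 0.0759).
Of the nicotinic modulators and their secreted relatives, SLURP1 was at 0.45 on the log2 scale (limma adjusted p 0.228), SLURP2 0.67 (0.115) and LYNX1 0.29 (0.528). SLURP2 passed without pBabe replicate 3 (0.95, adjusted p 0.0268). LYPD2 was at -0.15, LYPD4 at -0.13 and LYPD5 at -0.23, and GPIHBP1, which carries lipoprotein lipase across capillaries, at 0.14.
In the major histocompatibility complex cluster, LY6G5B was at -0.40 (limma adjusted p 0.0624), LY6G6C at -0.28, LY6G6D at -0.15 and LY6G6F at 0.16. TEX101 and SPACA4, proteins of germ cells and sperm, were at 0.72 (limma adjusted p 0.0909) and 0.52 (0.0830), and TEX101 passed without pBabe replicate 2 (0.99, adjusted p 0.0277). CD177 of neutrophils was at -0.55 (0.257). Most of these genes were dim, with mean intensities of 78.9 for TEX101, 93.2 for LYNX1 and 123 for CD177 in pBabe cells. The lowest intensity in the table was 50.002, so for most of them a fall as large as that of LY6K could hardly have shown.

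On chromosome 8, PSCA and LY6K were the pair of adjacent measured genes that were lower. Beside the counts of neighbours below, 14.1% of all genes were higher and 14.3% lower. The 5 nearest measured genes on each side of every chromosome 8 member gave 17 neighbours, of which 3 rose and 0 fell by the limma test (0 lower at an unadjusted p under 0.05), with log2 fold changes from -0.22 to 0.93 and a median of 0.37. Before PSCA in chromosome order, TSNARE1 (0.50), ADGRB1 (0.64) and JRK (0.61) rose, with limma adjusted p of 0.0332, 0.0312 and 0.0359, and MROH5 and ARC were at 0.63 and 0.93 without passing. Each of these 3 calls was lost with some arrays left out (adjusted p 0.0583 to 0.0981 for TSNARE1 and 0.0674 to 0.0915 for ADGRB1, in both cases without FOXC2 replicates 2 or 3 or pBabe replicates 1 or 3, and 0.0642 to 0.0949 for JRK, on leaving out any 1 array other than pBabe replicate 1).
After LY6K came THEM6 at 0.16, SLURP1, LYPD2, the read-through gene LYNX1-SLURP2 at 0.46, SLURP2 and LYNX1, and none of them passed. LYNX1-SLURP2 shares sequence with LYNX1 and SLURP2, so these may not be told apart. Around LY6D and LY6E, the aldosterone synthase CYP11B2 was at 0.24, ZFP41 at -0.22, GLI4 at 0.37, ZNF696 at 0.00 and the mitochondrial topoisomerase TOP1MT at 0.16, and 0 of them passed.
Around LYPD3 on chromosome 19, 3 of 10 neighbours rose and 0 fell, with log2 fold changes from -0.55 to 1.14. Around PLAUR 2 of 10 rose and 2 fell, among them the calcium-activated potassium channel KCNN4 (-0.93 ± 0.147, SE; limma adjusted p 0.00506), which was named after its values were seen. Around LYPD1, 2 of 10 neighbours rose, GPR39 among them, and 1 fell. Around CD59, 1 rose and 2 fell.

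**Figure D3:**
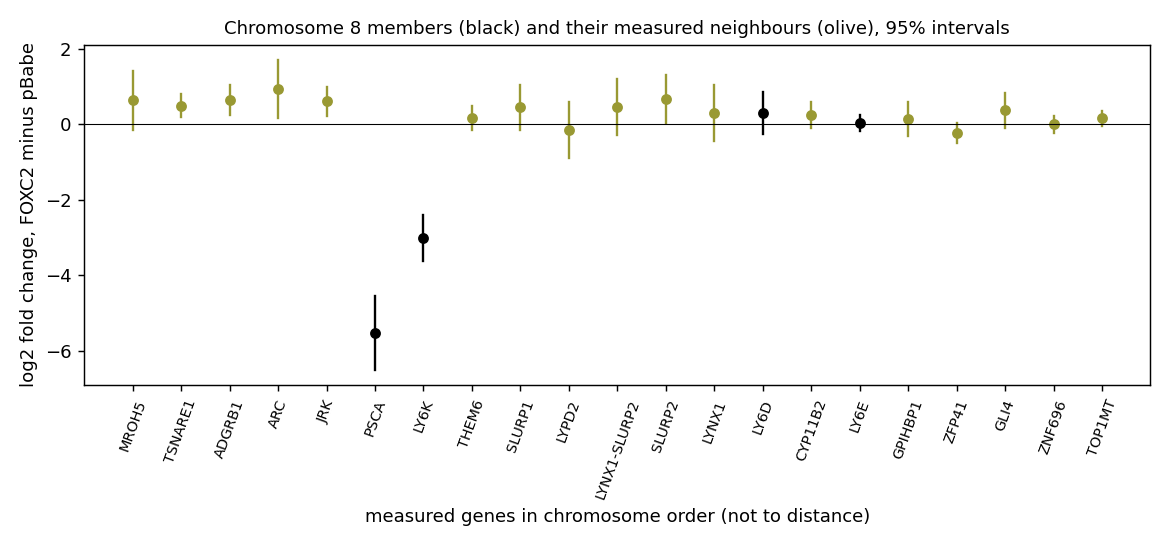
Log2 fold change (FOXC2 minus pBabe) with 95% confidence interval for the 4 measured members on chromosome 8, in black, and 17 measured neighbours, in olive, in chromosome order without distances. PSCA and LY6K lie side by side at -5.52 and -3.01, and every neighbour lies between -0.22 and 0.93.

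The genes most like PSCA over the 6 arrays were sought by the root mean square difference between log2 profiles, each centred on its own mean. The nearest were ALPP, at a difference of 0.451 log2 units, EMX2 at 0.664, COL5A1 at 0.675, ALPG at 0.742 and PI3 at 0.760. ALPP and ALPG are placental-type alkaline phosphatases, themselves GPI-anchored and too alike in sequence to be told apart with certainty. EMX2 is a homeobox factor, COL5A1 a fibrillar collagen and PI3 an elastase inhibitor.
ALPP was at 9188, 7924 and 12844 with the vector and 214, 308 and 619 with FOXC2, so FOXC2 replicate 3 was the highest of its group for ALPP as for PSCA and LY6K. For EMX2 it was not. The genes nearest to LY6K were S100P, a calcium-binding protein, CRYAB, a small heat shock protein, and IL2RB, an interleukin receptor chain, at differences of 0.155, 0.175 and 0.208.
LYPD3 was most like OLFML2A (0.0378), the transcription factor KLF7 (0.0695) and the collagen COL6A1 (0.0760), and LYPD1 like CCDC9B (0.0401), CARMIL2 (0.0665) and BAIAP2L2 (0.0679). With 2 groups of 3 arrays, likeness mainly reflects the size of the group difference. For LY6D, LY6E, PLAUR and CD59, the 3 nearest profiles differed by 0.0159 to 0.104, and the genes they belong to did not pass either.

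**Figure D4:**
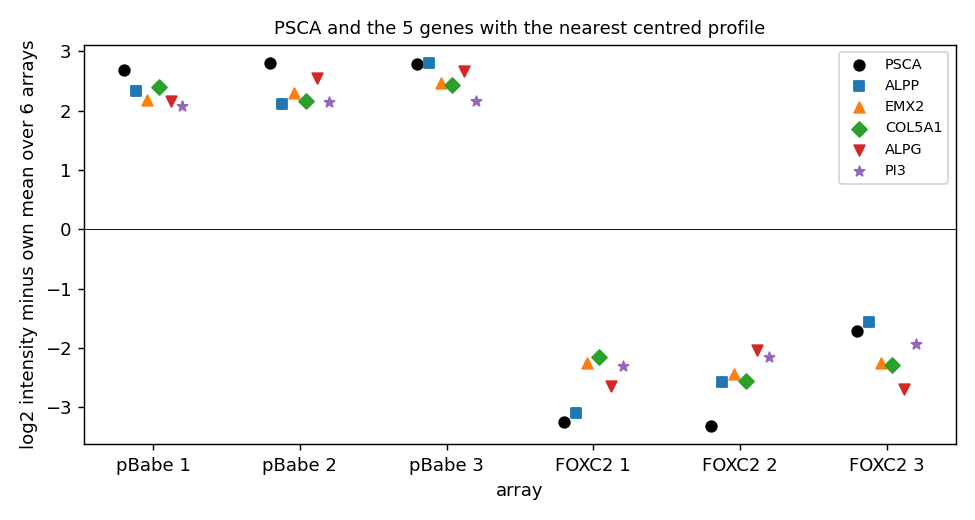
Log2 intensity of PSCA and the 5 genes with the nearest profile on each of 6 arrays, each centred on its own mean. All 6 genes are high in the 3 pBabe cultures and low in the 3 FOXC2 cultures; PSCA, ALPP and PI3 are higher in FOXC2 replicate 3 than in the other FOXC2 cultures.

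The ligand of PLAUR rose while PLAUR itself did not pass. Of 25 genes listed for the urokinase system, 17 were measured, with a median log2 fold change of -0.10. Of these, 2 rose, 5 fell and 10 did not pass, where 14.1% of all genes were higher and 14.3% lower. The list held UPK1A, a uroplakin of bladder, by error; without it 16 of 24 genes were measured, 2 rose, 5 fell and 9 did not pass, with a median of -0.06. Urokinase, PLAU, was at a mean intensity of 1838 in pBabe and 5931 in FOXC2 cells, a log2 fold change of 1.67 ± 0.144 (SE; limma adjusted p 4.49e-04). The membrane protease matriptase, ST14, rose by 1.78 ± 0.0821 (SE; limma adjusted p 5.05e-05).
Of the 5 that fell, the clearance receptor LRP1 fell by 1.23 (limma adjusted p 1.41e-04), the fibronectin receptor subunit ITGA5 by 0.74 (0.00154), and MRC2, a collagen receptor that associates with PLAUR, by 0.79 (0.0270). MRC2 no longer passed without FOXC2 replicates 1 or 3 or pBabe replicates 1 or 2 (adjusted p 0.0696 to 0.0805). Leaving out any of those 4 arrays, 3 genes of this list fell rather than 5, and with either other array left out at most 4 did.

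Complement genes fell beside a level of CD59 that did not differ detectably. Of 31 complement genes listed, 13 were measured, 9 fell, 0 rose by limma (2 were higher at an unadjusted p under 0.05) and 4 did not pass, where 14.3% of all genes were lower, with a median log2 fold change of -1.24. C4BPB, a chain of the C4b-binding inhibitor, fell by 2.71 ± 0.140 (SE), the protease C1R by 2.51 ± 0.121 (SE) and SERPING1, the inhibitor of C1, by 2.13 ± 0.263 (SE), with limma adjusted p of 7.02e-05, 5.63e-05 and 0.00193.
Of the membrane regulators that act before CD59, and named after their values were seen, CD55 fell by 1.24 ± 0.204 (SE; limma adjusted p 0.00608) and CD46 was at 0.29 (0.0896). CD46 passed as higher with dim features left out (limma adjusted p 0.0276) and with a trended robust prior (0.0450). Several complement genes were dim in FOXC2 cells, with mean intensities of 160 for C4BPB and 120 for SERPING1. With dim features left out 4 fell and 1 rose. C4BPB was kept there through pBabe alone, so that setting is no separate support for its fall.

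Several acetylcholine receptor subunits, the targets of the nicotinic modulators, rose. Of 22 genes listed as partners of LYPD3, LYPD1 and LYPD6, 12 were measured, 6 rose, 0 fell by limma (0 were lower at an unadjusted p under 0.05) and 6 did not pass, where 14.1% of all genes were higher, with a median log2 fold change of 0.35. All 6 that rose were acetylcholine receptor subunits. CHRND of the muscle receptor rose by 2.13 ± 0.149 (SE; limma adjusted p 2.03e-04) and CHRNB2 of the neuronal receptor by 1.42 ± 0.171 (SE; 0.00176), from mean intensities of 193 and 162 to 840 and 427.
CHRNA2 (0.73, limma adjusted p 0.0476) and CHRNA3 (0.69, 0.0205), the latter named after its values were seen, each lost the call without 1 of 4 arrays, at adjusted p of 0.0884 to 0.122 and 0.0539 to 0.0637. For both these were FOXC2 replicates 1 and 3 and pBabe replicate 2, and for CHRNA2 also FOXC2 replicate 2 and for CHRNA3 pBabe replicate 1. With 1 array left out, 2 to 6 genes of the list rose, the 2 without FOXC2 replicate 3, and with dim features left out 1 did.

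**Figure D5:**
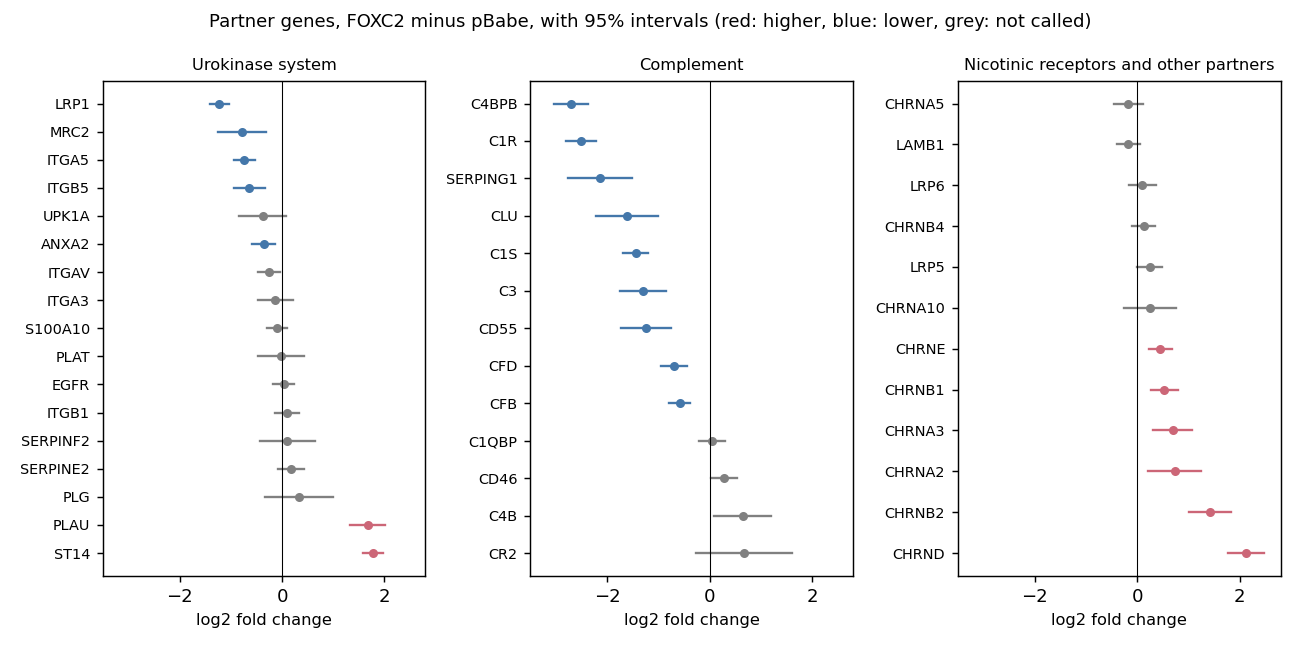
Log2 fold change (FOXC2 minus pBabe) with 95% confidence interval for 17 genes of the urokinase list (UPK1A among them by error), 13 complement genes and 12 nicotinic receptor and other partner genes, red for those higher, blue for those lower and grey for those that did not pass. PLAU and ST14 lie at 1.67 and 1.78, complement genes reach -2.71 and CHRND reaches 2.13.

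The machinery that makes and trims the GPI anchor was measured almost in full. Of 32 genes, 31 were measured, with a median log2 fold change of 0.02. Of these, 3 rose, 2 fell and 26 did not pass, where 14.1% of all genes were higher and 14.3% lower. The genes that rose remodel the anchor after its transfer or cut it at the surface: PGAP4 by 1.55 ± 0.164, PGAP3 by 0.74 ± 0.0957 and PGAP6 by 0.56 ± 0.107 (SE; limma adjusted p 0.00105, 0.00235 and 0.0107). PGAP1, another remodelling enzyme, fell by 0.52 (0.0126), and PIGV, a mannosyltransferase, by 0.36 (0.0436). PGAP1 did not pass with a trended robust prior (adjusted p 0.154), and PIGV did not pass on leaving out any 1 array other than FOXC2 replicate 3 (0.0887 to 0.122).
Other GPI-anchored surface proteins went both ways. Of 56 listed, 32 were measured, with a median of -0.08. Among them 5 rose, 10 fell and 17 did not pass, beside 14.1% higher and 14.3% lower over all genes. With 1 array left out, 4 rose without pBabe replicate 3, 3 without FOXC2 replicates 1 or 2 or pBabe replicate 1, and 2 without FOXC2 replicate 3 or pBabe replicate 2. With dim features left out 2 rose. The neural adhesion molecule NTM fell by 3.74, the folate receptor FOLR1 by 2.88 ± 0.0956 (SE) from a mean intensity of 14557 to 1980, and the growth arrest protein GAS1 by 2.76. The nucleotidase NT5E rose by 1.86 ± 0.143 (SE; limma adjusted p 2.83e-04), CD58, a ligand of T cells, by 0.70 (0.00919), and the ectoenzyme BST1 by 0.68 (0.0428). BST1 did not pass on leaving out any 1 array other than pBabe replicate 3 (adjusted p 0.0588 to 0.124). A shared GPI anchor thus went with falls, rises and genes that did not pass.

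Markers of other cell types were read beside these results. Each count below stands beside 14.1% higher and 14.3% lower over all genes. The summed intensities add probes of different brightness, so 1 or 2 bright genes carry most of each sum, and the changes of single genes are given beside them. Squamous markers, the tissue in which LYPD3 and LY6D are known, did not follow LYPD3: of 20 listed, 11 were measured, 4 rose, 1 fell and 6 did not pass. S100A2 rose by 1.43, and TRIM29 fell by 0.56. Without FOXC2 replicate 1, 3 rose and 2 fell. The squamous sum was 70524 to 75890 in pBabe and 87619 to 90449 in FOXC2 cultures, and KRT5 and SFN made up 81.9% and 87.0% of it.
Of 10 measured prostate and urothelium markers, 2 rose (TMPRSS2 by 2.48 and STEAP2 by 1.59) and 0 fell by limma (1 was lower at an unadjusted p under 0.05), with sums of 2562 to 3007 in pBabe and 3813 to 4224 in FOXC2 cultures. Without FOXC2 replicate 1, 3 of them rose and 1 fell. Of 9 colorectal markers 5 rose, among them VIL1 by 3.11 and EPCAM by 2.35, and KRT18 fell by 0.30. The call on KRT18 was lost on leaving out any 1 of the 6 arrays (adjusted p 0.0672 to 0.102). The colorectal sum was 84238 to 85048 in pBabe and 86725 to 91998 in FOXC2 cultures, of which KRT8 and KRT18 made up 74.8% and 61.4%.
Of 4 measured fibroblast markers 3 fell, with sums of 3290 to 4095 in pBabe and 821 to 1009 in FOXC2 cultures. Of 4 leukocyte markers 2 passed as lower: CD3D fell by 3.12 and NKG7 fell by 0.75. The other 2, CD68 at 0.40 and CD79A at 0.24, were higher in every FOXC2 culture without passing (limma adjusted p 0.0685 and 0.142). The leukocyte sum was 2283 to 2620 in pBabe and 1910 to 2380 in FOXC2 cultures, and CD68, which did not pass, made up 52.2% and 80.6% of it. Of 5 endothelium markers 3 fell and 2 rose, and ENG fell by 3.17, with sums of 4884 to 5073 in pBabe and 3119 to 3213 in FOXC2 cultures. Without pBabe replicate 2 only 1 endothelium marker fell, as ESAM and ROBO4 lost their calls, and 1 of these 2 also did so without any other single array. CLDN5, which rose, lost its call without FOXC2 replicates 1 or 3 or pBabe replicates 1 or 3, which left 1 marker higher. The part of any such cells in the results was not tested.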

How the data were processed

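Gene expression was measured in 3 FOXC2 and 3 pBabe cultures of SW480. The authors deposited linear intensities, made with RMA per the submitters' processing notes; for its version, its settings and the build, the sources used here give nothing. The study's design text gives 45033 genes, while the table held 33497 features, with a lowest intensity of 50.002. Whether features were removed before deposit was not established, so a gene without a feature here may still have been on the array. Symbols came from the array platform's annotation: 13730 of 33497 features had 1 and 19767 had none here.

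The deposited intensities were put on the log2 scale, without offset or filter. All 33497 features were fitted with limma 3.58.1 under R 4.3.3 (lmFit, then eBayes), p-values were adjusted over all of them by Benjamini-Hochberg, and 0.05 was the threshold. No set test was run. On simulated data for this comparison over 33497 features, 90% of 50 features with a log2 change of 2 were called, 66% at 1 and 2% at 0.5. The simulation used independent normal noise and changed only a small part of the features, whereas 26.3% passed in the real data. Its adjusted threshold was therefore stricter, and its shares do not give the chance of a call here. The members and the 12 lists were chosen with earlier results of these data known. Named were the members and further family genes, all neighbours of the chromosome 8 members, up to 3 passing genes per list and direction, and the nearest profiles; some marker genes under this rule are given as counts. COL3A1, CD68 and CD79A were added as the measured fibroblast and leukocyte markers that did not pass. Neighbours followed RefSeq gene order on GRCh38.p14. The number of arrays limits precision. Other settings tried were array weights, a trended robust prior, an offset of 16, quantile normalization, median centring, averaging the features of a gene, removal of dim features, the replicate number as a block, and each array left out in turn.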

Additional observations from a re-analysis of the deposited data

How the results depend on the processing

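PSCA stayed between -6.05 and -5.23, LY6K between -3.26 and -2.72, LYPD3 between -1.63 and -1.46 and LYPD1 between 1.19 and 1.31 under all settings and with each array left out, and the last 3 passed each time. The count of members passing besides PSCA was 3 under every setting, 1 higher and 2 lower. With dim features left out, a feature was kept if its higher group mean reached 9.82 on the log2 scale. LY6D and CD59 were not kept. PSCA and LY6K were kept through pBabe alone and LYPD1 through FOXC2 alone, so that setting is no separate support for them. The same holds for list genes such as C4BPB, kept through pBabe alone, and PGAP4, kept through FOXC2 alone. In the main fit 8819 features passed, 4450 higher and 4369 lower. With each array left out, 5752 to 6768 features passed (2732 to 3518 higher, 3020 to 3475 lower). The counts higher and lower then ran from 1 to 2 and 0 to 1 in the wider family, 2 to 2 and 3 to 4 in the urokinase system, and 0 to 1 and 9 to 9 for complement. They ran from 3 to 3 and 1 to 2 for anchor synthesis, 2 to 4 and 7 to 9 for other anchored proteins, and 2 to 6 and 0 to 0 for the partners.

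With the replicate number as a block, 2917 features were higher, the wider family had 2 higher and 2 lower, anchor synthesis 1 lower, other anchored proteins 3 higher and the partners 3 higher. The labels give no pairing. The same-numbered arrays' deviations from their group means correlated at -0.102, -0.119 and -0.0615, and differently numbered ones at 0.0228 to 0.0890. Deviations within a group cancel out, which ties these values together. They show no positive sign of pairing but cannot settle whether the numbers pair the cultures. With dim features left out, the wider family had 0 lower, complement 1 higher and 4 lower, anchor synthesis 5 higher, other anchored proteins 2 higher and the partners 1 higher. With a trended robust prior the wider family had 2 higher and 2 lower, complement 2 higher, and anchor synthesis 5 higher and 1 lower. Anchor synthesis had 1 lower with quantile normalization, median centring and array weights. The cause was not tested; leaving out dim features or an array lowers the number tested or the number of arrays.

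Signs turned for genes near 0, none of which passed. CD59 was at -0.026 with quantile normalization, and ZNF696 at 0.022 with quantile normalization and 0.013 with median centring. With each array left out in turn, CD59 ran from -0.039 to 0.038, LY6E from -0.0062 to 0.084, LYPD2 from -0.52 to 0.045, LYPD4 from -0.32 to 0.083, GPIHBP1 from -0.014 to 0.31 and ZNF696 from -0.069 to 0.059. Many genes were named because they passed with the largest changes, so stability over named genes is partly built in. Over named genes, 726 of 751 results under the other settings had the sign and call reported, 15 lost and 7 gained the call. With 1 array left out, 532 of 600 had them, 55 lost and 2 gained the call.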
